A study of Mus musculus with 16 samples.

Results

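The genes followed here were 40 genes of the cell cycle and of mitosis, chosen as a named list that runs from the loading of the replicative helicase to the final cut between daughter cells. Their transcripts were measured with Clariom S mouse arrays in epididymal adipose tissue, the fat pad beside the testis and its duct, of male C57Bl/6 NCrSlc mice aged 16.5 wks. Each gene was found by its symbol in the probe-to-gene table of the platform, by which 19572 transcript clusters carry 1 symbol, and 37 of the 40 genes were measured. *Mcm7*, *Ccnb1* and *Foxm1* had no cluster under these symbols and were not analysed here. The 16 arrays came from 4 groups of 4 pups, 1 array per pup. UN-RG-TU pups were born to dams restricted to 60% of the energy of NN dams and nursed in litters of 4, which induced rapid infantile growth (RG), and received tauroursodeoxycholic acid (TUDCA, TU), a bile acid that eases stress of the endoplasmic reticulum, by mouth from 11 to 16.5 wks. UN-RG-Veh pups had the same early life and received the vehicle. NN-TU and NN-Veh pups were born to dams fed without restriction, nursed in larger litters, and given TU and the vehicle over the same weeks. The sample titles write TUDCA for TU and UN for UN-RG. All pups were fed a high-fat diet from 9 wks, so that no group shows the tissue without it. No group was undernourished without rapid growth or grew rapidly without undernutrition, and these 2 parts of early life cannot be told apart. The litter of each pup is not given in the sources used here.

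Cells that divide first copy their DNA and then share it out. The MCM proteins form the helicase that opens DNA for replication, cyclins and their kinases drive each transition, the kinetochore fastens chromosomes to the spindle, and motor proteins and the midbody separate the daughter cells. Many of these genes are transcribed only in dividing cells, under E2F factors before replication and under the MuvB complex with B-Myb or FoxM1 before mitosis. Mature adipocytes rarely divide. In the fat of obese mice, dividing cells are found among macrophages, progenitor cells and endothelial cells.

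TU-treated pups had lower levels of some cell cycle and mitosis genes on the UN-RG background and of most on the NN background. The thresholds were a linear fold of 1.3 or more, which the study's methods name, together with p under 0.05 before adjustment. Past them, 13 of 37 genes were lower and 0 higher in UN-RG-TU than in UN-RG-Veh pups, beside 3.18% of all 22206 transcript clusters that were lower and 2.73% that were higher. In NN-TU pups 27 of the 37 were lower and 0 higher than in NN-Veh pups, beside 1.93% of all clusters that were lower and 1.36% that were higher. The median log2 fold change of the 37 genes was −0.37 in UN-RG pups and −0.72 in NN pups, while that of all clusters was 0.01 in UN-RG pups and −0.00 in NN pups. The fold change was negative for 36 of 37 genes in UN-RG pups and for 37 of 37 in NN pups. After Benjamini-Hochberg adjustment over all clusters, limma placed 0 of the 37 genes and 0% of all clusters under 0.05 in either comparison. At an unadjusted p under 0.05 there were 15 members in UN-RG pups, beside 8.05% of all clusters, and 31 in NN pups, beside 4.9%. The smallest adjusted p of a member was 0.278 in UN-RG pups and 0.481 in NN pups.

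The mean log2 intensity of the 37 genes was 7.51, 8.16, 7.77 and 8.02 in the UN-RG-TU pups, numbered 13 to 16, against 8.22, 8.43, 8.39 and 8.20 in the UN-RG-Veh pups, numbered 09 to 12. It was 7.29, 7.73, 8.22 and 7.41 in the NN-TU pups, numbered 05 to 08, against 8.56, 8.47, 8.23 and 8.33 in the NN-Veh pups, numbered 01 to 04. Each TU-treated pup lay below every vehicle pup of its own background. NN-TU replicate 07 lay just under the lowest NN-Veh pup, and UN-RG-TU replicate 13 lay furthest below the UN-RG-Veh pups. Of the 37 genes, NN-TU replicate 05 held the lowest of all 16 arrays for 16, NN-TU replicate 08 for 9 and UN-RG-TU replicate 13 for 7. NN-Veh replicates 01 and 02 held the highest value for 11 and 10 genes. These are whole pieces of tissue, in which fewer dividing cells and less of these transcripts per cell cannot be told apart.

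**Figure D1:**
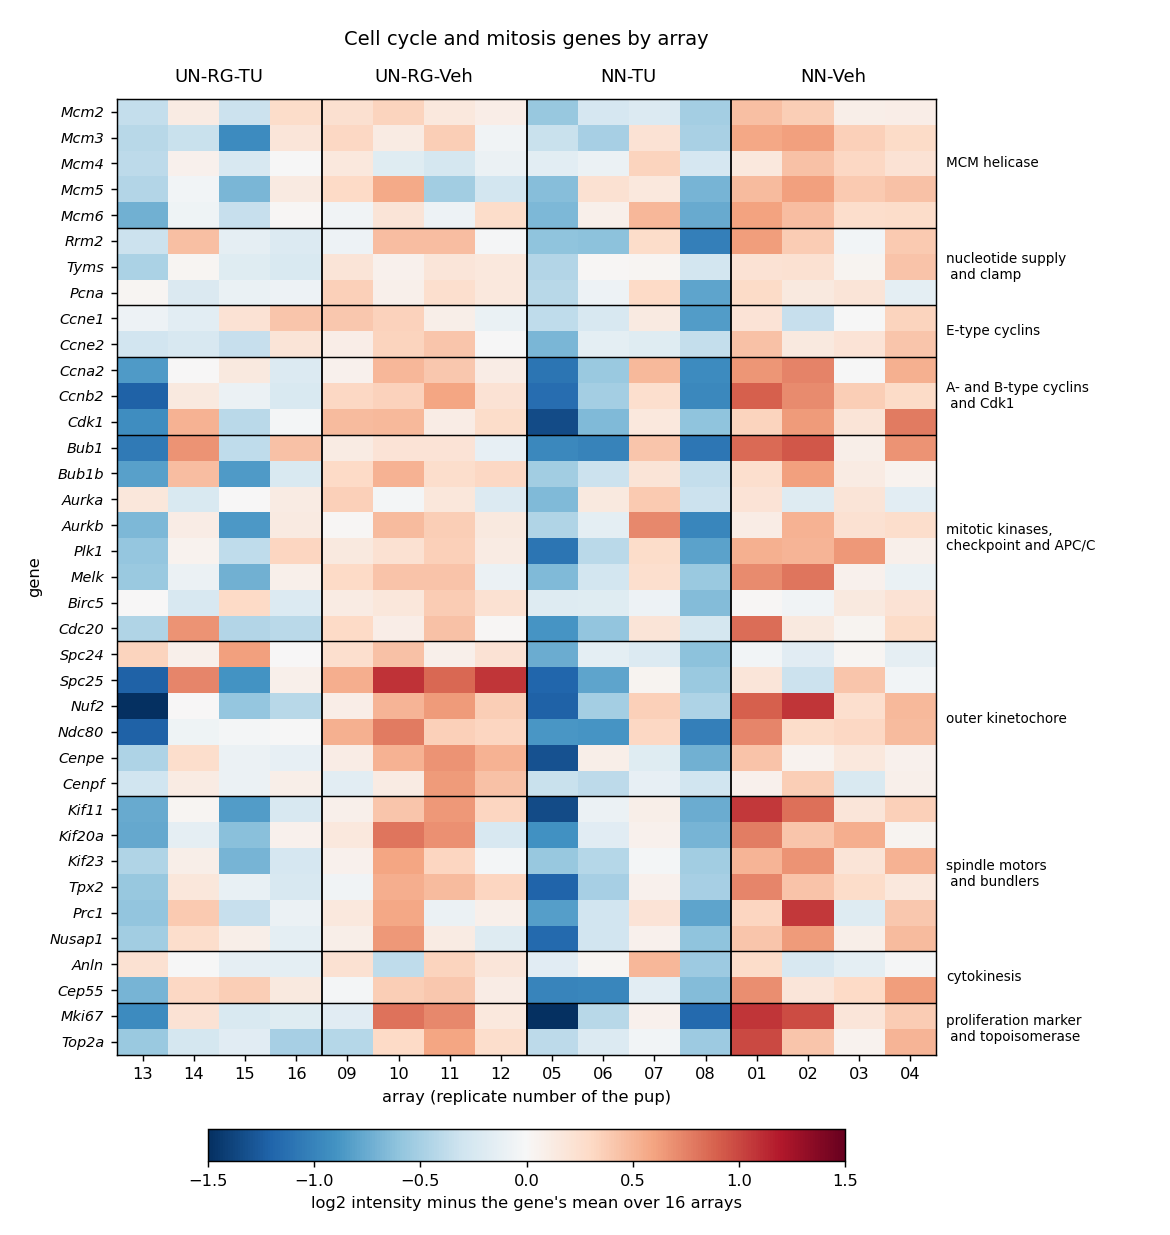
Log2 intensity of 37 cell cycle and mitosis genes (rows, grouped by role) on 16 arrays (columns, by group and replicate number), each value minus the gene's mean over the 16 arrays, with blue below and red above that mean. Blue fills most rows of NN-TU replicates 05 and 08 and of UN-RG-TU replicate 13, while NN-TU replicate 07 is near the colours of the vehicle pups.

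The array median was a log2 of 6.997 to 7.16, and the median of 220 antigenomic controls, probe sets without a target in the mouse that measure background, was 6.27 to 6.85. On every array 25 of the 37 genes lay above that median, and 1, *Pcna*, above the 95th percentile of the controls. *Cdc20*, *Spc24* and *Cenpf* lay under the median on every array, *Melk* was above it on 3 arrays, *Cdk1* on 4, *Aurka* on 6 and *Bub1* on 9. Markers of adipocytes were bright throughout, with a mean log2 of 16.8 to 17.1 over 7 genes. In each group 1 array stood apart by transcripts of motile cilia, with a mean of 7.59 in UN-RG-TU replicate 14, 7.49 in UN-RG-Veh replicate 12, 8.83 in NN-TU replicate 08 and 9.04 in NN-Veh replicate 02, against at most 5.89 on the other arrays. Without these 4 arrays 20 genes were lower in UN-RG-TU than in UN-RG-Veh pups, beside 4.59% of all clusters, and 22 in NN-TU than in NN-Veh pups, beside 2.12%.

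The promoters of the members were searched for motifs. These motifs are known from promoters of cell cycle genes, so that a high share among the members was likely from the start. In windows of 250 bases before to 50 after the start of transcription, taken from RefSeq on the mouse build GRCm38.p6, 30 of the 37 genes were found, and 1 window was read per gene. The cell cycle homology region (CHR), the letters TTTGAA at which MuvB binds in cell cycle promoters, occurred on either strand in 17 of 30 windows (56.7%), against 18.1% of the windows of 27025 genes. The CCAAT box, the letters CCAAT on either strand, occurred in 21 (70.0%), against 37.9% of all windows. Both stood together in 14 (46.7%), against 7.12%. E2F letters, TTTCGCGC, TTTGGCGC, TTTCCCGC or TTTGCCGC on either strand, occurred in 4 (13.3%), against 2.32%, and the 4 were *Cdk1*, *Mcm3*, *Mcm5* and *Mcm6*. In *Mcm5* and *Mcm6* neighbouring E2F matches overlap, and no other matches in the 30 windows share letters. None of the 3 motifs occurred in 6 (20.0%), against 49.9% of all windows. Among 42 windows of other mitosis genes 71.4% held a CHR, 71.4% a CCAAT box and 54.8% both, and among 23 of other DNA replication genes 30.4% held E2F letters. Of the members past the thresholds in NN pups 13 of 23 (56.5%) held a CHR, 73.9% a CCAAT box and 17.4% E2F letters, against 4 of 7 (57.1%), 57.1% and 0 of those not past them, a difference that was not tested. A match of letters is a description of the window, not a site shown to be bound.

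The windows below are those of the members with the smallest p in the comparison of NN-TU with NN-Veh pups for which a window was found. They are printed from 5′ to 3′ along the gene, and capitals mark a CHR or a CCAAT box on either strand. *Cep55* lies at chr19:38054734-38055033, plus strand, *Kif23* at chr9:61946750-61947049, minus strand, *Mki67* at chr7:135716330-135716629, minus strand and *Mcm2* at chr6:88898731-88899030, minus strand, each window covering the promoter and the first transcribed bases.
Cep55: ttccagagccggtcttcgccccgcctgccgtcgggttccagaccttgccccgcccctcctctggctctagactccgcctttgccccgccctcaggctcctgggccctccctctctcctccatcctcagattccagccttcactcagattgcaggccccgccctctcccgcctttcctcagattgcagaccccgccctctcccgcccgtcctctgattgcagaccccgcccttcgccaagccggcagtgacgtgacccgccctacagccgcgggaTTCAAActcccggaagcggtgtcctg
Kif23: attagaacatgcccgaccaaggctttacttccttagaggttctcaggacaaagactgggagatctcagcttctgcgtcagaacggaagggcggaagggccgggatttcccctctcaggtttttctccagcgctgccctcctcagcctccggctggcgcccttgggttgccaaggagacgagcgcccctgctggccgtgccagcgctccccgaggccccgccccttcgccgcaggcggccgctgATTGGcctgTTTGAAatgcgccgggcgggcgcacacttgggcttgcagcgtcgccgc
Mki67: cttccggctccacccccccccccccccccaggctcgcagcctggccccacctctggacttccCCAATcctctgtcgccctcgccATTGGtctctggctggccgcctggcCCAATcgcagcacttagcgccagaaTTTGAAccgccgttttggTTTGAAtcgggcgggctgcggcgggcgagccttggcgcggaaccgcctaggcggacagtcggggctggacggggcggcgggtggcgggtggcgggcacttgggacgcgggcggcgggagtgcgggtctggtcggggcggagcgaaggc
Mcm2: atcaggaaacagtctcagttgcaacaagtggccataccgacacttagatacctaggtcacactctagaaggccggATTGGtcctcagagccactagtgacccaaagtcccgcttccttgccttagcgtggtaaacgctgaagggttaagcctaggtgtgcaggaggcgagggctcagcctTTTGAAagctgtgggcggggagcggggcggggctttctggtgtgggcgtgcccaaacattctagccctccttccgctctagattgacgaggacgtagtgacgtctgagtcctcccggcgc
*Mki67* holds 2 CHR and 3 CCAAT boxes, *Kif23* and *Mcm2* hold 1 of each, and *Cep55* holds 1 CHR and 0 CCAAT boxes. With the first transcribed base as position 1, the CCAAT box of *Kif23* begins at −7 and its CHR at 3, and the CHR of *Cep55* begins at 25.

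Of 5 measured subunits of the MCM helicase, 1, *Mcm3*, was lower in UN-RG-TU than in UN-RG-Veh pups and 4 were lower in NN-TU than in NN-Veh pups. *Mcm3* had log2 intensities of 7.49, 7.58, 6.96 and 8.09 in UN-RG-TU pups, against 8.21, 8.03, 8.28 and 7.85 in UN-RG-Veh pups. In NN-TU pups it had 7.57, 7.41, 8.12 and 7.41, against 8.49, 8.52, 8.27 and 8.19 in NN-Veh pups. Every NN-TU pup lay below every NN-Veh pup, while UN-RG-TU replicate 16 lay within the range of the UN-RG-Veh pups. The log2 fold change was −0.57 (SE 0.21, adjusted p = 0.457) in UN-RG pups and −0.74 (SE 0.21, adjusted p = 0.682) in NN pups. For *Mcm2* the values were 7.83, 8.32, 7.87 and 8.47 in UN-RG-TU pups, against 8.43, 8.53, 8.35 and 8.29 in UN-RG-Veh pups. They were 7.62, 7.94, 7.98 and 7.69 in NN-TU pups, against 8.64, 8.56, 8.28 and 8.29 in NN-Veh pups. The NN groups did not overlap, and in UN-RG pups only replicates 13 and 15 of the TU group lay below the vehicle range. The fold change of *Mcm2* was −0.28 (SE 0.15), not past the thresholds, in UN-RG pups and −0.63 (SE 0.15, adjusted p = 0.506) in NN pups. *Mcm5* and *Mcm6* were lower in NN-TU pups at −0.72 and −0.62, and *Mcm4*, at −0.32, missed the fold of the thresholds.

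Of 3 genes for the supply of nucleotides and the replication clamp, 0 passed the thresholds in UN-RG pups and 2 were lower in NN-TU pups. *Rrm2*, the small subunit of ribonucleotide reductase, had a fold change of −0.25 (SE 0.25) in UN-RG pups and of −0.83 (SE 0.25) in NN pups, where it was lower with TU. *Tyms*, thymidylate synthase, had −0.37 (SE 0.14) in UN-RG pups, at an unadjusted p under 0.05 but just under the fold, and was lower in NN-TU pups at −0.39 (SE 0.14). *Pcna*, the sliding clamp of DNA polymerases, was the brightest of the 37 genes. It had 14.50, 14.25, 14.38 and 14.39 in UN-RG-TU pups, against 14.83, 14.55, 14.72 and 14.62 in UN-RG-Veh pups. In NN-TU pups it had 14.05, 14.40, 14.77 and 13.68, against 14.75, 14.62, 14.67 and 14.33 in NN-Veh pups. The UN-RG groups did not overlap, though by a narrow margin, and NN-TU replicate 07 lay above every NN-Veh pup. Its fold changes, −0.30 (SE 0.18) in UN-RG pups and −0.37 (SE 0.18) in NN pups, missed the thresholds.

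Of the E-type cyclins, which activate Cdk2 at the entry into S phase, *Ccne2* was lower in NN-TU pups and *Ccne1* did not pass the thresholds. *Ccne2* had 7.10, 7.14, 7.04 and 7.58 in UN-RG-TU pups, against 7.48, 7.71, 7.80 and 7.37 in UN-RG-Veh pups, and 3 of the 4 TU pups lay below the vehicle range. It had 6.69, 7.23, 7.20 and 7.02 in NN-TU pups, against 7.82, 7.53, 7.59 and 7.79 in NN-Veh pups, without overlap. Its fold change was −0.38 in UN-RG pups, just under the limit on the fold, and −0.64 in NN pups (SE 0.16, adjusted p = 0.506). *Ccne1* had fold changes of −0.08 in UN-RG pups and −0.38 in NN pups.

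Of *Ccna2*, the cyclin of S phase and of mitotic entry, *Ccnb2*, a partner of Cdk1, and *Cdk1*, the kinase that drives mitosis, *Ccnb2* was lower in UN-RG-TU pups, at −0.71 (SE 0.29, adjusted p = 0.54). All 3 were lower in NN-TU than in NN-Veh pups, *Ccna2* at −1.01 (SE 0.30), *Ccnb2* at −1.15 (SE 0.29) and *Cdk1* at −1.10 (SE 0.29). *Ccnb2* had 7.56, 8.92, 8.68 and 8.54 in UN-RG-TU pups, against 9.08, 9.12, 9.37 and 8.99 in UN-RG-Veh pups. In NN-TU pups it had 7.63, 8.27, 9.03 and 7.80, against 9.66, 9.48, 9.14 and 9.06 in NN-Veh pups. Neither pair of groups overlapped, and NN-TU replicate 07 nearly met the lowest NN-Veh pup. *Cdk1* had 5.24, 6.69, 5.75 and 6.13 in UN-RG-TU pups, against 6.64, 6.64, 6.27 and 6.44 in UN-RG-Veh pups. It had 4.83, 5.50, 6.32 and 5.56 in NN-TU pups, against 6.50, 6.80, 6.36 and 6.94 in NN-Veh pups. The NN groups did not overlap, whereas UN-RG-TU replicate 14 was above every UN-RG-Veh pup and the other 3 were below them all. Most *Cdk1* values lay under the median of the antigenomic controls.

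Among kinases, checkpoint proteins and activators of the anaphase-promoting complex, 2 of 8 genes were lower in UN-RG-TU pups and 5 of 8 in NN-TU pups. *Bub1b*, the checkpoint protein BubR1, had 6.88, 8.15, 6.85 and 7.47 in UN-RG-TU pups, against 7.99, 8.22, 7.96 and 8.01 in UN-RG-Veh pups. It had 7.18, 7.37, 7.89 and 7.34 in NN-TU pups, against 7.95, 8.31, 7.82 and 7.75 in NN-Veh pups. In each TU group 1 pup, UN-RG-TU replicate 14 and NN-TU replicate 07, lay within the vehicle range and 3 lay below it. The fold change was −0.71 (SE 0.24, adjusted p = 0.388) in UN-RG pups and −0.51 (SE 0.24, adjusted p = 0.9998) in NN pups. *Plk1*, a kinase of spindle assembly and cytokinesis, had 7.48, 8.12, 7.69 and 8.39 in UN-RG-TU pups, against 8.21, 8.29, 8.42 and 8.18 in UN-RG-Veh pups. It had 6.97, 7.66, 8.33 and 7.27 in NN-TU pups, against 8.60, 8.58, 8.72 and 8.15 in NN-Veh pups. All but TU replicate 16 of the UN-RG pups and TU replicate 07 of the NN pups lay below the vehicle range of their background. The fold change was −0.36 (SE 0.25), not past the thresholds, in UN-RG pups and −0.96 (SE 0.25, adjusted p = 0.656) in NN pups. *Melk*, a kinase of dividing cells, was lower in both backgrounds, at −0.59 in UN-RG pups and −0.69 in NN pups. *Cdc20*, which activates the anaphase-promoting complex, was lower in NN-TU pups at −0.72, below the background median throughout. *Aurka*, *Aurkb* and *Birc5*, which encode the Aurora kinases and survivin, did not pass the thresholds, with fold changes of −0.06, −0.58 and −0.26 in UN-RG pups and of −0.12, −0.49 and −0.36 in NN pups.

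The outer kinetochore held the member with the smallest p in UN-RG pups. Of 6 genes, 4 were lower in UN-RG-TU pups and 3 in NN-TU pups. *Spc25*, a subunit of the Ndc80 complex that grips microtubules, had 7.93, 9.87, 8.25 and 9.22 in UN-RG-TU pups, against 9.69, 10.22, 10.004 and 10.22 in UN-RG-Veh pups. It had 7.96, 8.36, 9.19 and 8.59 in NN-TU pups, against 9.32, 8.82, 9.57 and 9.10 in NN-Veh pups. The UN-RG-TU pups were widely spread, replicates 13 and 15 far below the others, and UN-RG-TU replicate 14 alone reached the vehicle range, as NN-TU replicate 07 did in NN pups. The fold change was −1.22 (SE 0.35, adjusted p = 0.278) in UN-RG pups and −0.68 (SE 0.35), not past the thresholds, in NN pups. *Nuf2*, another subunit, had 7.12, 8.65, 8.07 and 8.23 in UN-RG-TU pups, against 8.74, 9.16, 9.29 and 9.01 in UN-RG-Veh pups. It had 7.44, 8.14, 9.004 and 8.19 in NN-TU pups, against 9.54, 9.72, 8.90 and 9.14 in NN-Veh pups. The UN-RG groups did not overlap, and in NN pups TU replicate 07 lay within the vehicle range. Its fold changes were −1.03 (SE 0.32, adjusted p = 0.323) in UN-RG pups and −1.13 (SE 0.32, adjusted p = 0.682) in NN pups. *Ndc80*, the subunit that names the complex, had 6.16, 7.30, 7.34 and 7.37 in UN-RG-TU pups, against 7.90, 8.15, 7.73 and 7.69 in UN-RG-Veh pups, without overlap. It had 6.50, 6.48, 7.69 and 6.35 in NN-TU pups, against 8.10, 7.65, 7.68 and 7.85 in NN-Veh pups, and TU replicate 07 again lay within the vehicle range. Its fold changes were −0.83 (SE 0.29, adjusted p = 0.408) in UN-RG pups and −1.06 (SE 0.29, adjusted p = 0.682) in NN pups. *Cenpe*, a kinesin of the kinetochore, was lower in both backgrounds, at −0.56 in UN-RG pups and −0.71 in NN pups, while *Cenpf* had −0.30 and −0.36 and did not pass.

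Of 6 spindle motors and microtubule bundlers, 4 were lower in UN-RG-TU pups and 6 in NN-TU pups. *Kif23*, a motor of the central spindle, had 8.47, 9.01, 8.22 and 8.66 in UN-RG-TU pups, against 8.98, 9.51, 9.24 and 8.88 in UN-RG-Veh pups. It had 8.35, 8.49, 8.88 and 8.40 in NN-TU pups, against 9.43, 9.59, 9.11 and 9.44 in NN-Veh pups. The NN groups stood clear of each other, and UN-RG-TU replicate 14 lay within the vehicle range. Fold changes were −0.57 (SE 0.18, adjusted p = 0.362) in UN-RG pups and −0.86 (SE 0.18, adjusted p = 0.481) in NN pups. *Kif11*, the motor that pushes the spindle poles apart, had 7.87, 8.66, 7.80 and 8.39 in UN-RG-TU pups, against 8.71, 9.04, 9.29 and 8.95 in UN-RG-Veh pups. It had 7.29, 8.54, 8.72 and 7.89 in NN-TU pups, against 9.69, 9.45, 8.81 and 8.98 in NN-Veh pups. *Kif11* and *Ccnb2* were the only members past the thresholds without overlap in both backgrounds. The fold change of *Kif11* was −0.81 (SE 0.29, adjusted p = 0.423) in UN-RG pups and −1.13 (SE 0.29, adjusted p = 0.63) in NN pups.

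*Kif20a*, a kinesin of cytokinesis, had 6.36, 6.99, 6.50 and 7.19 in UN-RG-TU pups, against 7.29, 7.94, 7.81 and 6.89 in UN-RG-Veh pups. It had 6.22, 6.96, 7.19 and 6.44 in NN-TU pups, against 7.89, 7.54, 7.67 and 7.17 in NN-Veh pups. A single vehicle pup in each background, UN-RG-Veh replicate 12 and NN-Veh replicate 04, reached down into the range of the TU pups. Its fold changes were −0.72 (SE 0.27, adjusted p = 0.457) in UN-RG pups and −0.87 (SE 0.27, adjusted p = 0.754) in NN pups. *Tpx2*, which activates Aurora A and nucleates spindle microtubules, had 7.14, 7.88, 7.60 and 7.46 in UN-RG-TU pups, against 7.66, 8.25, 8.19 and 8.04 in UN-RG-Veh pups. It had 6.51, 7.21, 7.77 and 7.21 in NN-TU pups, against 8.43, 8.14, 7.98 and 7.87 in NN-Veh pups. The NN groups did not overlap, and UN-RG-TU replicate 14 lay within the vehicle range. The fold change of *Tpx2* was −0.51 (SE 0.23, adjusted p = 0.586) in UN-RG pups and −0.93 (SE 0.23, adjusted p = 0.531) in NN pups. *Prc1* and *Nusap1*, which bundle and stabilize microtubules, had −0.34 and −0.25 in UN-RG pups, where neither passed, and were lower in NN-TU pups at −0.82 and −0.91.

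Of the cytokinesis genes, *Anln*, a scaffold of the contractile ring, did not pass in either background, at −0.11 in UN-RG pups and −0.01 in NN pups. *Cep55*, which recruits the machinery of the final cut to the midbody, had 7.18, 8.19, 8.25 and 8.02 in UN-RG-TU pups, against 7.85, 8.25, 8.27 and 7.99 in UN-RG-Veh pups. It had 6.89, 6.90, 7.72 and 7.22 in NN-TU pups, against 8.57, 8.06, 8.18 and 8.50 in NN-Veh pups. Every NN-TU pup lay below every NN-Veh pup, whereas UN-RG-TU replicate 13 alone lay below the UN-RG-Veh pups. The fold change was −0.18 (SE 0.23), not past the thresholds, in UN-RG pups and −1.15 in NN pups.

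*Mki67*, the classical marker of dividing cells, had 10.17, 11.33, 10.89 and 10.93 in UN-RG-TU pups, against 10.94, 11.92, 11.83 and 11.27 in UN-RG-Veh pups. It had 9.62, 10.70, 11.18 and 9.95 in NN-TU pups, against 12.18, 12.10, 11.30 and 11.50 in NN-Veh pups. The NN groups did not overlap, while UN-RG-TU replicate 14 lay within the vehicle range of its background. The fold change of *Mki67* was −0.66 (SE 0.34), not past the thresholds, in UN-RG pups, and −1.41 (SE 0.34, adjusted p = 0.506) in NN pups, where it was the largest of the 37 genes. *Top2a*, the topoisomerase that untangles sister chromosomes, had 7.49, 7.79, 7.88 and 7.55 in UN-RG-TU pups, against 7.62, 8.35, 8.64 and 8.31 in UN-RG-Veh pups. It had 7.66, 7.84, 8.01 and 7.51 in NN-TU pups, against 9.04, 8.47, 8.10 and 8.56 in NN-Veh pups. It was lower in both backgrounds, without overlap in NN pups and with UN-RG-Veh replicate 09 inside the range of the TU pups in UN-RG pups. The fold changes were −0.55 (SE 0.21, adjusted p = 0.505) in UN-RG pups and −0.79 (SE 0.21, adjusted p = 0.682) in NN pups.

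**Figure D2:**
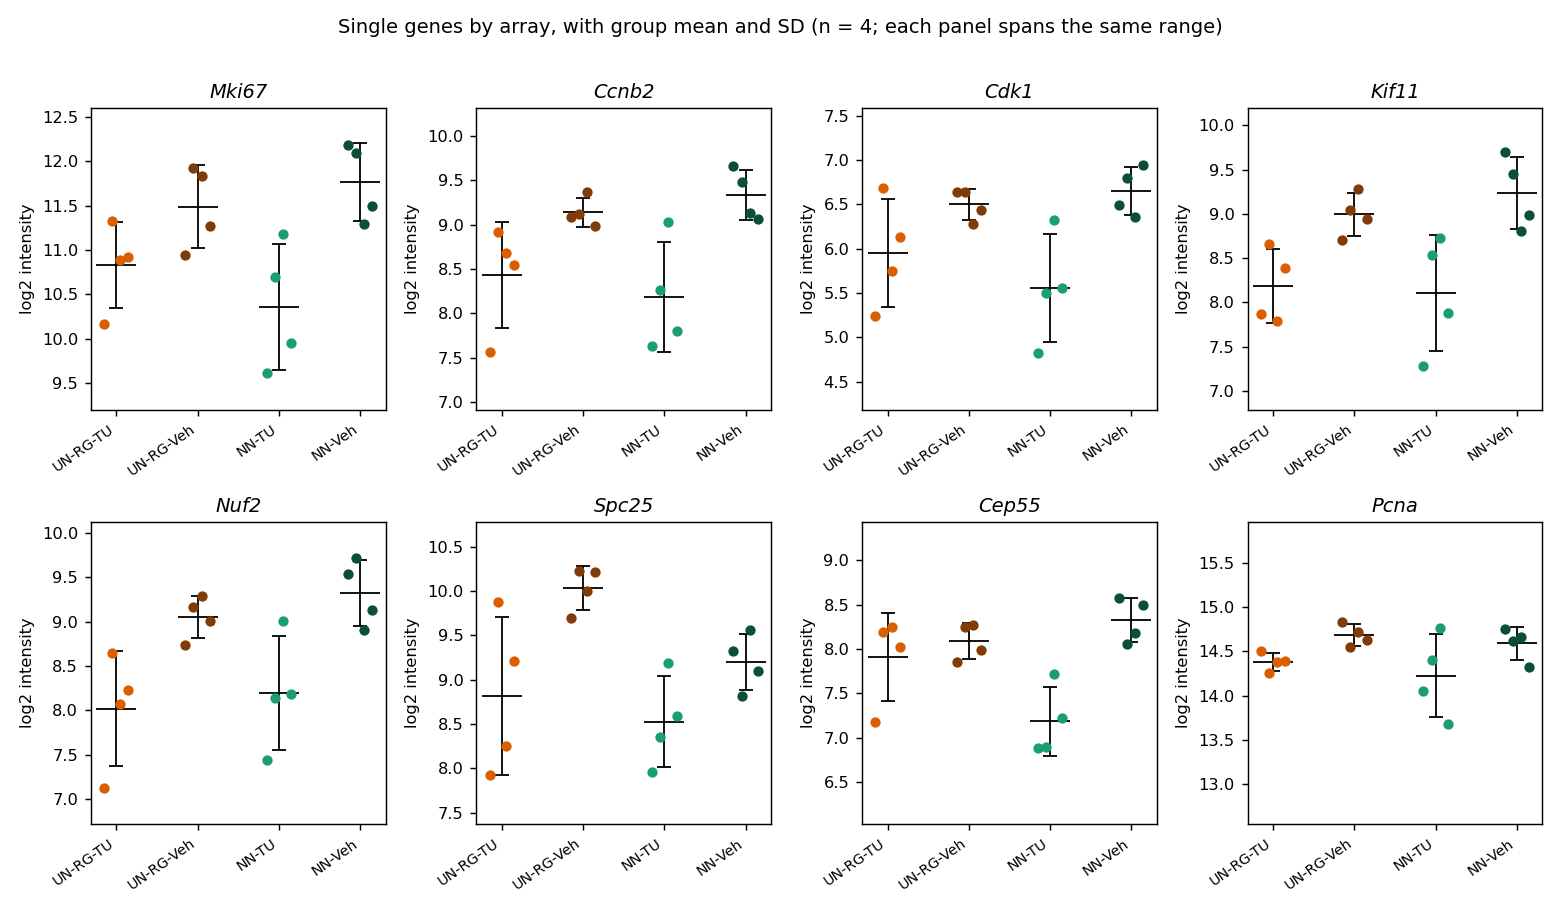
Log2 intensity of 8 genes (panels) in 4 pups per group (points), with the group mean and SD (bars) and vertical axes that span the same range. The NN-TU points lie below the NN-Veh points for *Mki67*, *Ccnb2*, *Cdk1*, *Kif11* and *Cep55*, while *Pcna* spans little beside the others in UN-RG pups.

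Both TU comparisons use separate arrays. Of the 27 genes lower in NN-TU pups, 12 were also lower in UN-RG-TU pups, and these were 12 of the 13 lower there: *Mcm3*, *Ccnb2*, *Bub1b*, *Melk*, *Nuf2*, *Ndc80*, *Cenpe*, *Kif11*, *Kif20a*, *Kif23*, *Tpx2* and *Top2a*. *Spc25* was the 1 gene past the thresholds in UN-RG pups alone, 15 were past them in NN pups alone, and 9 in neither. Because most members were lower in NN-TU pups, most of the 13 would be shared even if the comparisons were unrelated. The shared count was not tested or set beside that of all clusters. In UN-RG pups 6 genes did not overlap between the groups and were lower, beside 2.05% of all clusters, and in NN pups 15, beside 1.86%. In both, 0 were higher without overlap, beside 1.84% of all clusters in UN-RG pups and 1.74% in NN pups. Without each array in turn, the count in UN-RG pups was 6 to 18, with 6 without UN-RG-TU replicate 13, beside 2.67% of all clusters in that fit, 7 without UN-RG-Veh replicate 11, beside 3.01%, and 18 without UN-RG-TU replicate 14, beside 3.89%. In each of these fits 5 genes, *Spc25*, *Nuf2*, *Kif23*, *Bub1b* and *Kif11*, stayed past the thresholds. In NN pups the count was 23 to 35, with 35 without NN-TU replicate 07, beside 3.13% of all clusters, and 22 of the 27 genes stayed past the thresholds throughout.

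**Figure D3:**
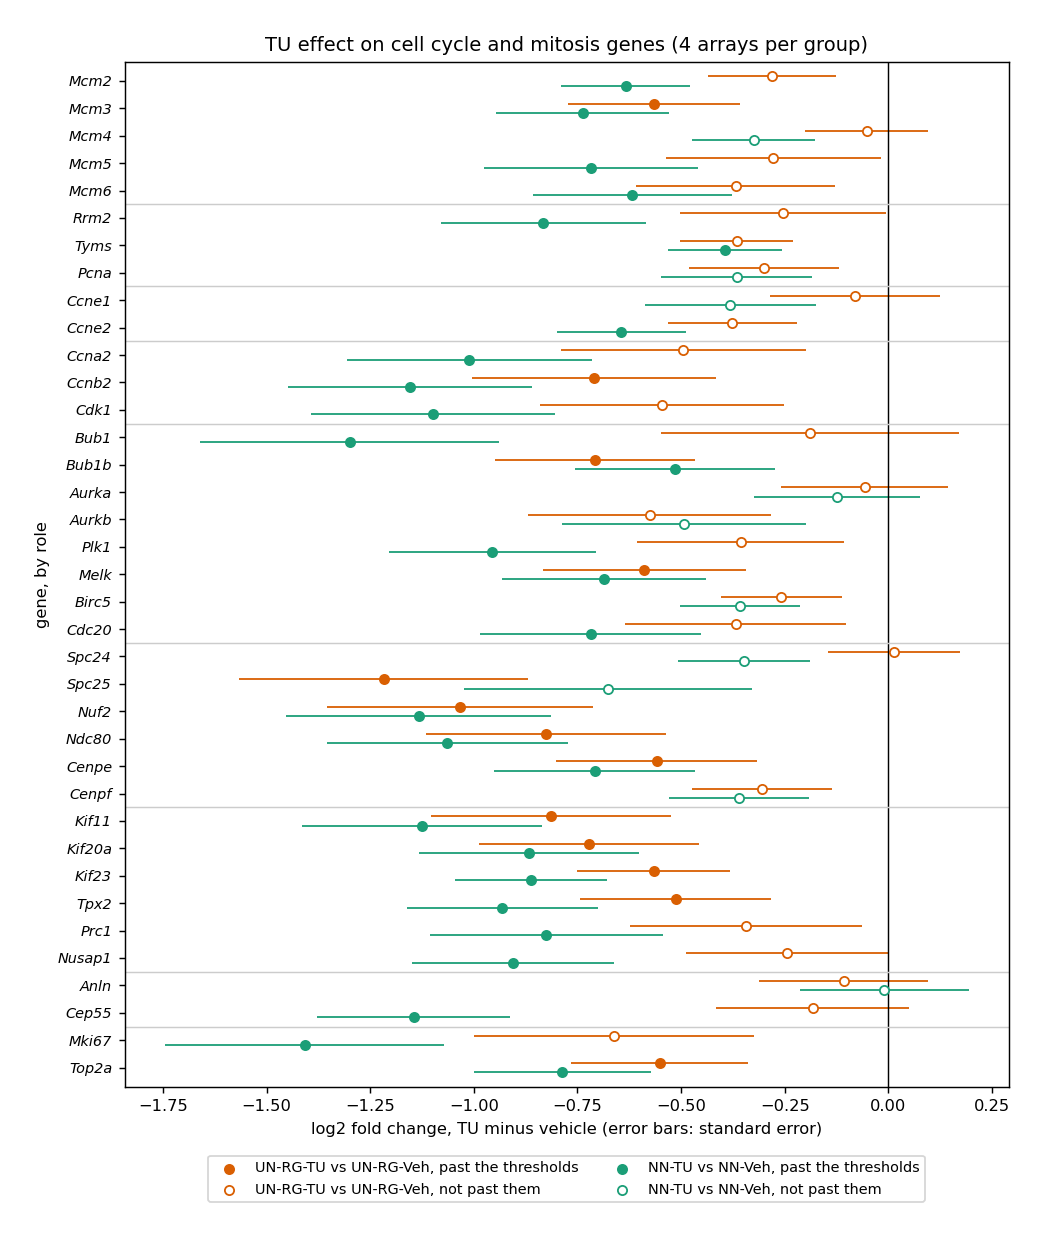
Log2 fold change of each of 37 genes, TU minus vehicle, in UN-RG pups (orange) and NN pups (green), with bars of 1 standard error from limma and filled points for genes past the thresholds. All points but that of *Spc24* in UN-RG pups lie left of 0, and most green points lie left of the orange point of the same gene.

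A contrast that averages the TU effect over both backgrounds, chosen after seeing the data, used all 16 arrays. It had 29 of 37 genes lower and 0 higher, beside 2.41% of all clusters lower and 1.55% higher, and a median log2 fold change of −0.61. *Kif23* had −0.71 (SE 0.13), *Nuf2* −1.08 (SE 0.23) and *Kif11* −0.97 (SE 0.20), each at an adjusted p of 0.0765 (limma), the smallest value in this contrast, and 0% of all clusters passed 0.05. At an unadjusted p under 0.05 there were 32 members, beside 9.83% of all clusters. With clusters dimmer than the antigenomic median left out, which kept 11964 clusters and 30 of the genes, 10 genes passed an adjusted p of 0.05, beside 1.23% of the clusters kept. They were *Mcm3*, *Ccne2*, *Ccnb2*, *Nuf2*, *Ndc80*, *Kif11*, *Kif23*, *Tpx2*, *Mki67* and *Top2a*, all lower with TU. In this contrast 0 members passed an adjusted p of 0.05 after median centring, after quantile normalization or with a trended robust prior. The same held without the 4 arrays with cilia transcripts. Leaving out single arrays, 16 passed without NN-TU replicate 07, 4 without UN-RG-TU replicate 14, 2 without UN-RG-Veh replicate 09 and 0 without any other.

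The early-life comparison without TU moved few of these genes. In UN-RG-Veh pups 1 gene, *Spc25*, was higher and 0 were lower than in NN-Veh pups, beside 2.46% of all clusters that were higher and 1.99% that were lower. The median log2 fold change was −0.12 over the 37 genes and 0.01 over all clusters. The fold change of *Spc25* was 0.83 (SE 0.35, adjusted p = 0.763), and each UN-RG-Veh pup lay above every NN-Veh pup. It missed the thresholds without NN-Veh replicate 02 or 04, without UN-RG-Veh replicate 10 or 12, and without the 4 arrays with cilia transcripts. *Spc24*, at 0.32 (SE 0.16), also had no overlap but did not pass, and *Mcm4*, at −0.38 (SE 0.15), had no overlap on the lower side and was just short of the fold. Counts of 2 genes higher and 1 lower without overlap stood beside 2.46% and 1.92% of all clusters. No member passed an adjusted p of 0.05 (limma), beside 0.00901% of all clusters, and 2 had an unadjusted p under 0.05, beside 6.15%. This comparison shares the UN-RG-Veh arrays with the TU comparison in UN-RG pups and the NN-Veh arrays with that in NN pups.

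Between the TU-treated groups 2 genes were higher and 0 lower in the UN-RG-TU than in the NN-TU group, beside 1.16% of all clusters that were higher and 0.675% that were lower. At an unadjusted p under 0.05 there were 2 members, beside 3.06% of all clusters. *Spc24* had 6.26, 5.99, 6.53 and 5.92 in UN-RG-TU pups, against 5.17, 5.78, 5.72 and 5.30 in NN-TU pups. It had 6.17, 6.36, 5.99 and 6.13 in UN-RG-Veh pups and 5.88, 5.75, 5.95 and 5.78 in NN-Veh pups. Every UN-RG-TU pup lay above every NN-TU pup, and the highest NN-TU pup just reached the NN-Veh range. The fold change of UN-RG-TU over NN-TU pups was 0.68 (SE 0.16, adjusted p = 0.9999), at intensities below the background median on every array. *Cep55* was the other gene, at 0.73 (SE 0.23, adjusted p = 0.9999), and the values of UN-RG-TU replicate 13 and NN-TU replicates 07 and 08 overlapped. The 37 genes had a median of 0.24, and of 0.02 without the 4 arrays with cilia transcripts. Without UN-RG-TU replicate 13 the count was 8 and without NN-TU replicate 07 it was 12, all of them higher in UN-RG-TU pups, beside 1.25% and 1.53% of all clusters.

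Whether the TU effect differed with early life was tested by the interaction, taken as its log2 value on the UN-RG background less its value on the NN background. It passed the thresholds for 2 of 37 genes, both positive, beside 1.36% of all clusters with a positive and 1.64% with a negative one, and 2 members had an unadjusted p under 0.05, beside 3.16% of all clusters. They were *Cep55*, at 0.96 (SE 0.33, adjusted p = 0.9999), and *Bub1*, at 1.11 (SE 0.51, adjusted p = 0.9999). *Bub1*, a kinase of the spindle checkpoint, had 5.45, 7.18, 6.12 and 6.94 in UN-RG-TU pups, against 6.64, 6.72, 6.71 and 6.39 in UN-RG-Veh pups. It had 5.54, 5.51, 6.92 and 5.42 in NN-TU pups, against 7.36, 7.44, 6.60 and 7.18 in NN-Veh pups. In UN-RG pups 2 TU values lay above the vehicle range and 2 below it, and in NN pups all but TU replicate 07 lay below it. For 33 of 37 genes the interaction was positive, the TU estimate being more negative in NN pups, with a median of 0.27. It was positive for 11482 of all 22206 clusters. The 37 genes vary together on the same arrays, so that their signs are not separate observations. Without NN-TU replicate 07, 8 genes passed, beside 1.43% of all clusters with a positive interaction, and without NN-Veh replicate 01, 02 or 04, NN-TU replicate 05, 06 or 08, UN-RG-Veh replicate 09, 11 or 12 or UN-RG-TU replicate 16, 1 passed, beside 1.17% to 2.09%. For the other 35 genes the difference between the backgrounds did not pass, which does not show that the effects were alike.

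The 37 genes varied together within groups. After subtraction of group means, the median Pearson correlation between pairs of genes was 0.52 over the 16 arrays, as a description across genes that share arrays. For 31 of 37 genes the correlation with the mean of the other members was over 0.5. It was 0.92 for *Ccnb2* and *Mki67*, 0.90 for *Nuf2* and 0.89 for *Mcm6* and *Bub1*, and it was lowest for *Birc5*, at 0.01, and *Spc24*, at 0.20. Over all clusters the median correlation with the member mean was −0.01. Among named genes outside the list, those nearest to the member mean were *H1f1*, a linker histone, at 0.93, *Pclaf*, a partner of PCNA, at 0.93, *Cenpi*, of the inner kinetochore, at 0.90, *Atad2*, a chromatin ATPase, at 0.89, and *Naa50*, an acetyltransferase, at 0.89. *Smarcad1*, *Cip2a*, *Arl1*, *Sec23a* and *Ncapg* followed at 0.88 to 0.87. *H1f1* was lower in both TU comparisons, with fold changes of −0.81 in UN-RG pups and −0.82 in NN pups (SE 0.25 each). Also lower in both were *Cip2a*, at −0.66 in UN-RG pups and −0.81 in NN pups, and *Ncapg*, at −0.69 and −0.77. *Pclaf* and *Atad2* were lower in NN-TU pups alone, and *Cenpi* in UN-RG-TU pups alone. *Naa50* and *Smarcad1*, and *Arl1* and *Sec23a*, of vesicle transport, passed in neither.

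Of 51 other genes of mitosis, in a list that excludes the members, 14 were lower and 0 higher in UN-RG-TU than in UN-RG-Veh pups, and 23 were lower and 0 higher in NN-TU than in NN-Veh pups, with medians of −0.24 in UN-RG pups and −0.39 in NN pups. *Kif2c*, a motor that takes microtubules apart, was lower at −0.65 (SE 0.18) in UN-RG pups and −0.88 (SE 0.18) in NN pups. *Sgo2a*, which protects cohesion at centromeres, was lower at −0.50 in UN-RG pups and −0.80 in NN pups. *Mad2l1*, of the spindle checkpoint, was lower at −0.61 in UN-RG pups and −0.63 in NN pups, and *Ncapg*, of condensin, at −0.69 and −0.77. *Hmmr*, a spindle and hyaluronan-binding protein, was lower at −0.70 in UN-RG pups and −1.18 in NN pups. *Ckap2*, a spindle protein, was lower past the thresholds in NN-TU pups alone, at −1.06. Of 28 further genes of DNA replication, 2 were lower in UN-RG-TU pups, *Fen1* at −0.63 and *Lig1* at −0.45, a nuclease and a ligase that join Okazaki fragments. In NN-TU pups 4 were lower, *Rrm1*, the large subunit of ribonucleotide reductase, at −0.72, *Cdc6*, a helicase loader, at −0.65, *Uhrf1*, which maintains DNA methylation, at −0.60, and *Prim1*, a primase subunit, at −0.68.

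Lists of cell cycle regulators and of p53 targets were set beside the shares of all clusters past the thresholds. These were 3.18% lower and 2.73% higher in UN-RG-TU pups, and 1.93% lower and 1.36% higher in NN-TU pups. Of 18 E2F factors, pocket proteins and MuvB subunits, 0 passed in UN-RG-TU pups and 3 were lower in NN-TU pups. These were *E2f7* at −0.50 (SE 0.14) and *E2f8* at −0.80 (SE 0.29), themselves E2F targets and repressors, and *Tfdp1*, an E2F partner, at −0.39 (SE 0.13). Of 6 G1 cyclins and kinases 0 passed in either background, with medians of −0.06 in UN-RG pups and −0.10 in NN pups. Among 8 CDK inhibitors, *Cdkn2c*, which blocks Cdk4 and Cdk6, was higher in UN-RG-TU than in UN-RG-Veh pups, at 0.97 (SE 0.25, adjusted p = 0.214), and 0 passed in NN pups. Of 11 targets of p53, 0 passed in UN-RG pups, and *Sesn1*, a sestrin of the stress response, was higher in NN-TU pups at 0.42 (SE 0.15). The fold change was negative for 7 of the 11 in NN pups, with a median of −0.09. No gene of these lists passed an adjusted p of 0.05 in either TU comparison.

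**Figure D4:**
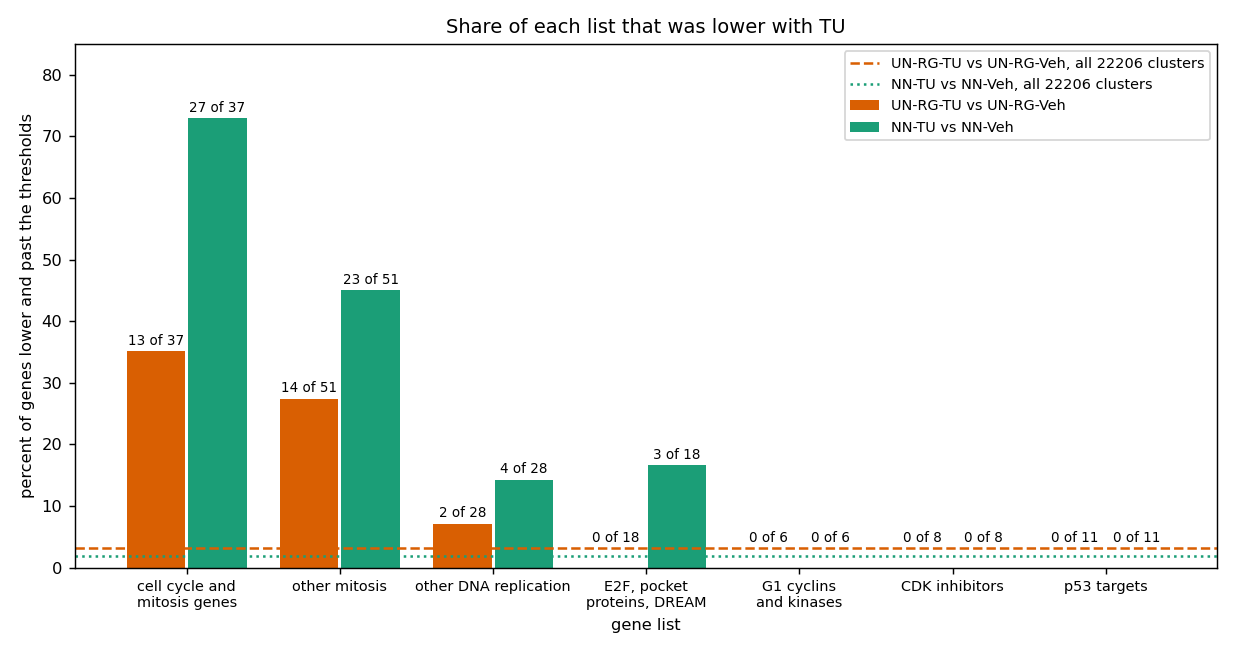
Percent of the genes of 7 lists that were lower with TU and past the thresholds in UN-RG pups (orange) and NN pups (green), with counts above the bars and dashed and dotted lines for all 22206 clusters, at 3.18% and 1.93%. The members and the other mitosis genes stand highest in both comparisons, and 0 G1 genes, CDK inhibitors or p53 targets were lower.

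Markers of other cell types were set beside these genes. Of 9 measured macrophage markers 1, *Fcgr1*, was lower in each TU comparison, at −0.91 in UN-RG pups and −0.59 in NN pups, and 0 were higher. The fold change was negative for 8 of 9 in both, with medians of −0.38 in UN-RG pups, where 2 were lower without overlap, and −0.14 in NN pups, where 0 were. The mean log2 of the macrophage markers was 12.1, 11.6, 11.0 and 12.1 in UN-RG-TU pups, against 12.2, 12.1, 12.2 and 12.3 in UN-RG-Veh pups. It was 11.3, 11.9, 12.4 and 10.6 in NN-TU pups, against 12.1, 11.2, 12.2 and 11.5 in NN-Veh pups. NN-TU replicates 05 and 08, lowest in cell cycle genes, were also lowest of their group here, while UN-RG-TU replicate 13, lowest of its group in cell cycle genes, was near the top. Their summed intensity ranged from 83156 to 142868 in UN-RG-TU pups, 117355 to 135140 in UN-RG-Veh pups, 69873 to 135524 in NN-TU pups and 94685 to 142355 in NN-Veh pups, and none of the 9 lay under the background median. With group means subtracted, the correlation of this mean with that of the 37 genes was 0.41 over the 16 arrays, and its part in the result was not tested.

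Of 5 endothelial markers 1, *Pecam1*, an adhesion molecule, was lower in UN-RG-TU than in UN-RG-Veh pups, at −0.42 (SE 0.14), with 4 of 5 negative and a median of −0.33. In NN pups 0 passed, 4 of 5 were negative and the median was −0.16. Their mean log2 was 12.9 to 13.6 in UN-RG-TU pups, against 13.3 to 13.6 in UN-RG-Veh pups, and 13.04 to 13.6 in NN-TU pups, against 13.3 to 13.6 in NN-Veh pups. Of 4 measured markers of stromal progenitors 1, *Pi16*, was higher in UN-RG-TU than in UN-RG-Veh pups, at 1.12 (SE 0.32), with 4 of 4 positive and a median of 0.12. In NN pups 0 passed, 3 of 4 were negative and the median was −0.03. Their mean was 12.3 to 12.9 in UN-RG-TU pups, against 12.02 to 12.4 in UN-RG-Veh pups, and 12.3 to 12.7 in NN-TU pups, against 12.4 to 12.7 in NN-Veh pups. No marker of either list lay under the background median. Within groups, the correlation of the list mean with that of the 37 genes was −0.28 for endothelial and 0.23 for progenitor markers, and the part of these cells was not tested.

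Mesothelial markers moved with TU in UN-RG pups, where 6 of 7 were higher with TU than with vehicle, with a median of 1.52, while 0 of 7 passed in NN pups. Their mean log2 was 8.51 to 10.3 in UN-RG-TU pups, against 6.80 to 8.73 in UN-RG-Veh pups, and 8.48 to 9.63 in NN-TU pups, against 8.32 to 9.02 in NN-Veh pups. Their summed intensity was 6223 to 19905 in UN-RG-TU pups and 1091 to 7367 in UN-RG-Veh pups, and 6179 to 14464 in NN-TU pups and 4581 to 8355 in NN-Veh pups. All 7 lay above the background median, and the correlation with the member mean was −0.08 within groups. Of 8 T cell markers 2 were lower and 1 higher in UN-RG-TU pups, and of 5 NK cell markers 2 were lower, while 1 T cell marker and 0 NK cell markers were lower in NN-TU pups. Of 5 neutrophil markers 1, *S100a8*, was lower in both TU comparisons, at −2.50 (SE 0.44) in UN-RG pups and −1.18 (SE 0.44) in NN pups. The fold change was positive for 2 of the 5 in UN-RG pups, with a median of −0.13. In NN pups it was positive for 3 of the 5, with a median of 0.00. Of 7 adipocyte markers 0 passed in either. Germ cells of the testis also divide, and their 13 markers averaged 6.54 in NN-TU replicate 08 and 6.94 in NN-Veh replicate 03, against at most 5.87 on the other arrays, with 11 of the 13 under the background median. Of these 13, *Sycp3*, of the synaptonemal complex, was lower in UN-RG-TU than in UN-RG-Veh pups at −0.80 (SE 0.36). The fold change there was positive for 9 of the 13, with a median of 0.17. In NN pups 0 passed, 10 of 13 were negative and the median was −0.18. The part of these cells in the result was not tested.

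**Figure D5:**
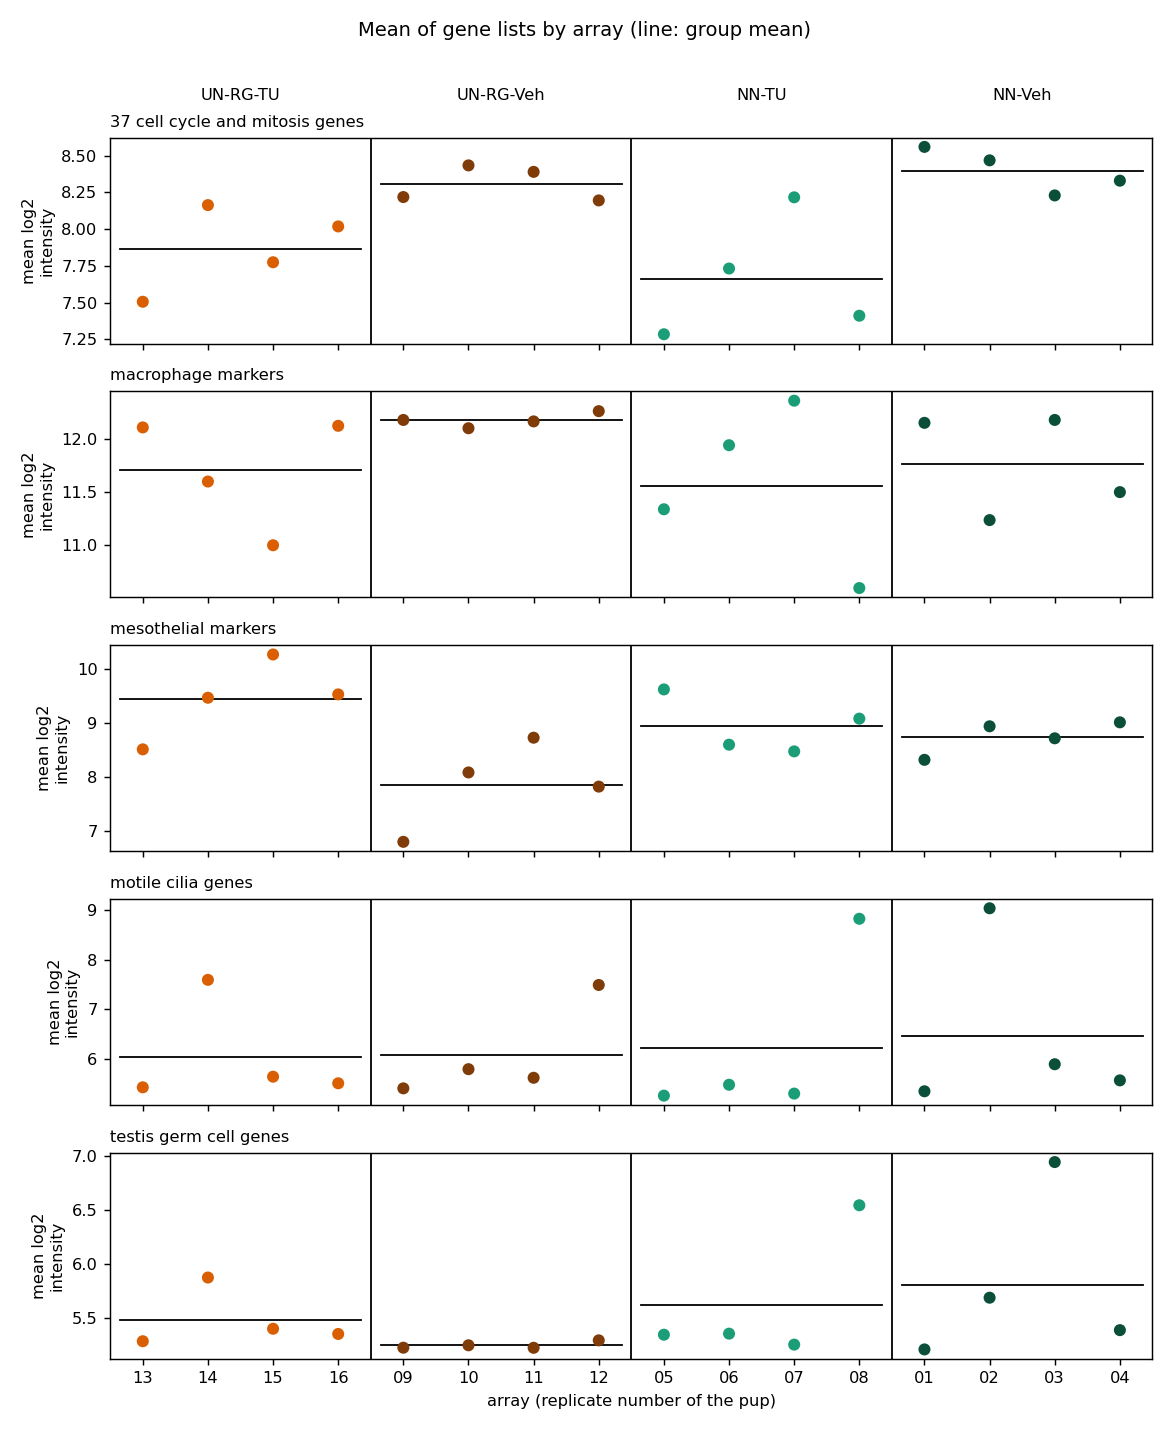
Mean log2 intensity of 37 cell cycle and mitosis genes and of 4 marker lists (panels) on 16 arrays (points, by group and replicate number), with a line at each group mean and an axis of its own for each panel. The group mean of the cell cycle genes lies lower with TU on both backgrounds, mesothelial markers lie higher in UN-RG-TU than in UN-RG-Veh pups, and cilia and germ cell genes stand out on single arrays.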

How the data were processed

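RNA from the epididymal adipose tissue of 16 pups was hybridised by the authors to Clariom S mouse arrays after WT PLUS labelling and analysed in Expression Console and Transcriptome Analysis Console, whose versions and normalization are not given in the sources used here. The deposited intensities are normalized and linear, and log2 of each was taken. Of 22520 probe sets, 314 controls were left out. Groups came from the sample titles, and the labels name no batch. The source name of the NN-TU samples reads NN-RG-TU, while their titles, maternal diet and treatment are those of NN-TU. The study states that it had no NN-RG-TU group. The 16 arrays limit the precision. One linear model with 4 group means was fitted with limma 3.58.1 (lmFit, eBayes) in R 4.3.3, after a check on simulated data, with Benjamini-Hochberg adjustment over 22206 transcript clusters. A call required a linear fold of 1.3 or more, as in the study's methods, and p under 0.05 before adjustment. The arrays of a group are separate pups. Genes named with each array's values were members past these thresholds, at most 10 per comparison by p, and the 2 brightest. From each other list at most 4 per comparison were named, with their values in the other TU comparison where they passed there too. The members and lists were chosen with earlier results of these data known. Motifs were searched and figures drawn in Python 3.11.15 with matplotlib 3.10.9. Alternatives were a filter on dim clusters, median centring, quantile normalization, compared groups alone, a trended robust prior, the methods' t-test, and leaving out arrays.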

Additional observations from a re-analysis of the deposited data

Results flagged for a closer look

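In each of the 4 groups the highest and lowest pup were compared with the other 3 for each of 37 genes, which gave 148 looks, and about 1 in 20 would stand apart by chance. A pup stood apart where its gap to the next was, as a share of the range of its group, over Dixon's limit for 4 samples, and 4 values did. *Cdc20* had a log2 intensity of 5.86 in UN-RG-TU replicate 14, against 4.74 to 4.79 in the other UN-RG-TU pups. *Ndc80* had 6.16 in UN-RG-TU replicate 13, against 7.30 to 7.37 in the others of its group. In NN-TU replicate 07, *Bub1* had 6.92, against 5.42 to 5.54 in the other NN-TU pups, and *Ndc80* had 7.69, against 6.35 to 6.50.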

How the results depend on the processing

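The median over the 37 genes kept its direction under every setting that can move it, in the 4 comparisons and the averaged TU effect. For members past the thresholds in a comparison, 1285 values were computed under other settings, of which 1194 still passed, 91 no longer did and 0 reversed. These genes were picked for passing on the same arrays, so that a reversal was unlikely from the start. Of the values without 1 array, 456 of 464 still passed for the averaged TU effect. In the comparison of UN-RG-TU with UN-RG-Veh pups 78 of 104 did, and 8 genes failed at least once. Counts below stand beside the share of all clusters past the thresholds in the direction of the members that passed in the main fit. In the comparison of UN-RG-TU with UN-RG-Veh pups, where 13 genes passed, 8 passed by the methods' t-test, beside 1.95%. Without the 4 arrays with cilia transcripts 20 passed, beside 4.59%, and without each array in turn 6 to 18, beside 2.67% to 4.49%. In that of NN-TU with NN-Veh pups, where 27 passed, 23 to 35 passed without each array in turn, beside 1.67% to 3.13%. Under the other settings 22 to 28 passed, beside 1.52% to 2.18%. In that of UN-RG-Veh with NN-Veh pups, where 1 passed, 2 passed with the compared groups alone, beside 2.98%, and 2 by the t-test, beside 1.97%. In each of these 2 fits 1 gene was higher and 1 lower. Without the arrays with cilia transcripts 0 passed, beside 1.99%, and without each array 0 to 2, beside 1.64% to 3.22%. Between UN-RG-TU and NN-TU pups, where 2 passed, 1 passed with dim clusters left out, beside 0.311%, and 1 by the t-test, beside 0.549%. Without each array 2 to 12 passed, beside 1.01% to 3.2%. For the interaction, where 2 passed, 1 passed with dim clusters left out, beside 0.914%, and 1 after quantile normalization, beside 1.25%. Without each array 1 to 8 passed, beside 1.13% to 2.09%. The TU effect averaged over both backgrounds had 28 to 30 genes without each array, against 29, beside 1.95% to 3.21%. The cause of these shifts was not tested. No paired analysis was possible because the replicate numbers are unique to each pup. Of the 37 genes, 7 were dimmer on average than the antigenomic controls, and for these the arrays say least.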
